A study of Mus musculus with 18 samples.

Results

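The genes described here are the ephrins and Eph receptors, the Slits and Robo receptors, and the netrins, netrin-Gs and netrin receptors, chosen as a list of 40 gene symbols. Of these, 39 were matched by Ensembl identifier among the 38355 genes counted, and Ntn3 was not analysed here. A filter on low counts kept 38 members among 16236 genes tested: 21 of the Eph-ephrin family, 7 of the Slit-Robo family and 10 of the netrin family. Epha6, an EphA receptor, did not pass it, with 0 to 13 counts per library. RNA was sequenced from cortex dissected at embryonic day E12.5 from mice of the C57BL/6 strain. The genotypes were the Dmrt3;Dmrt5 double knockout (double KO, 5 libraries), Dmrt5 KO (4 libraries), Dmrt3 KO (5 libraries) and wild type (WT, 4 libraries). The double KO lacks both of these doublesex-related transcription factors, and the single KOs each lack 1 of them. Dmrt5 is an older name of the gene now called Dmrta2. The sources used here do not give the alleles behind the knockouts. The labels do not tie libraries to separate embryos or litters, so the p-values below measure the spread between libraries, which may in part be technical.

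Ephrins are membrane-bound ligands: ephrin-As are held by a lipid anchor and ephrin-Bs span the membrane, and both signal on contact with Eph receptor tyrosine kinases, in the receptor-bearing cell and in the ligand-bearing cell. Slits are secreted proteins that repel growth cones and migrating cells through Robo receptors. Netrin-1 is a secreted cue that attracts through Dcc and repels through Unc5 receptors, while netrin-Gs are lipid-anchored relatives that bind leucine-rich repeat proteins of the Lrrc4 family at synapses. In the embryonic forebrain these systems set borders between areas, position neurons and steer thalamocortical, corticofugal and callosal axons.

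Several libraries stood apart, which bears on the members below. Total counts per library ran from 19602718 to 33072896. Dmrt3 stood at 0 to 0.383 CPM (reads of a gene relative to the scaled library total, as a normalised read count) in the double KO, 30.3 to 48.5 in Dmrt5 KO, 0.232 to 0.398 in Dmrt3 KO and 52 to 61.8 in WT. Dmrta2 stood at 1.66 to 4.9 CPM in the double KO, 4.31 to 25.1 in Dmrt5 KO, 155 to 295 in Dmrt3 KO and 159 to 220 in WT. The value of 25.1 CPM belonged to Dmrt5 KO replicate 1, which also held both Xist (26.7 CPM) and the Y-linked Ddx3y (20.7 CPM). WT replicate 2 held Xist at 462 CPM and some Ddx3y, at 2.45 CPM. Ddx3y stood at 0 to 0.296 CPM in the other libraries called female. Of 10 subpallial markers, 10 were called higher in the double KO than in WT, and of 10 glutamatergic markers 9 were called lower. None of 10 mesenchyme markers was called in that comparison, but their summed level ran from 37 to 2109 CPM over the double KO libraries and from 760 to 2440 CPM over WT. The highest mesenchyme level of the double KO was in replicate 4 and the lowest in replicate 5. Endothelial markers summed to 163 to 381 CPM in the double KO and 290 to 381 CPM in WT, with none of 10 called. No marker of these lists was at 0 throughout a genotype. In tissue of mixed cells, fewer cells of a type and less RNA per cell cannot be told apart.

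In WT cortex the ephrin-Bs led the list. Per kilobase of exon, Efnb1 was the most abundant member at 125 ± 7.06 CPM (SD, n = 4), followed by Efnb3 at 49.9 ± 7.53, Efnb2 at 39.7 ± 9.03 and the ephrin-A gene Efna2 at 35.2 ± 11.3. The most abundant receptors on this scale were Epha4 at 20.8 ± 7.35, Ephb2 at 20.5 ± 2.93, Ephb4 at 18.7 ± 2.27 and the netrin and repulsive-guidance-molecule receptor Neo1 (neogenin) at 18.4 ± 5.38. On this scale Robo3 (12.6 ± 4.02) stood above Robo1 (5.45 ± 2.5) and Robo2 (3.64 ± 1.48). The exon length used is that of all annotated exons of a gene merged. Without division by it, Robo1 averaged 90 CPM (53.3 to 149), Robo3 86.6 (56.1 to 121) and Robo2 61.9, so the order of Robo1 and Robo3 depends on this length. Ntn1, at 11.4 ± 1.6, was the leading netrin. The list ended with Epha1 at 0.32 ± 0.101, Ntng1 at 0.309 ± 0.125 and Epha10 at 0.202 ± 0.0186. Only Efnb1 was separated from its neighbour in this order: for 36 of the 37 neighbouring pairs the WT libraries overlapped.

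**Figure D1:**
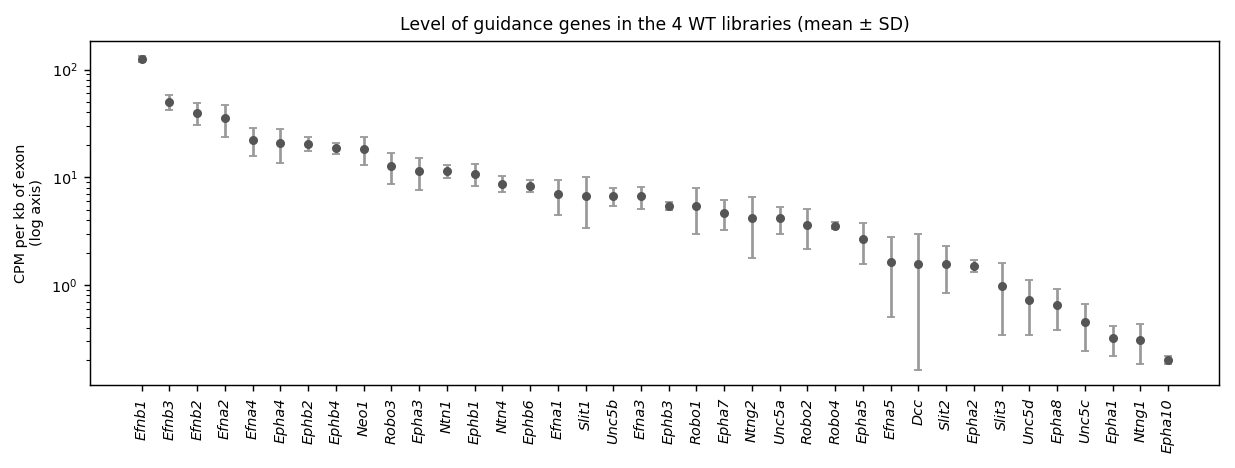
Level of the 38 tested guidance genes in the 4 WT libraries, in CPM per kilobase of exon on a log axis, ordered from high to low (points are means, bars SD). Efnb1 stands above all others at 125 CPM per kilobase, and Epha10 is lowest at 0.202.

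The changes were concentrated in the double KO. In the double KO against WT, 6 of the 38 members were called at an adjusted p under 0.05 (edgeR's quasi-likelihood test, Benjamini-Hochberg adjustment over all genes), which is 15.8% against 6.23% of all tested genes. Efnb3, Epha10, Ephb1 and Ntn1 rose, and Efnb1 and Ntng2 fell. Against Dmrt3 KO, 7 members were called in the double KO, 18.4% against 3.7% of all genes: Efnb3, Ephb1, Robo1 and Ntn1 rose, and Efna1, Efnb1 and Ntng2 fell. These comparisons share the double KO libraries. Dmrt5 KO against WT gave a single call, Efnb3, which is 2.63% of the members against 1.03% of all genes. No member was called in Dmrt3 KO against WT, where 0.0123% of all genes were, or in the double KO against Dmrt5 KO, where 0.333% were. At an unadjusted p under 0.05, 5 and 6 members passed in these comparisons, where 7.16% and 4.71% of all genes did, and DESeq2 also called 0 in each, with 0.253% and 0.513% of all genes called. The interaction asks on the log2 scale whether the double KO departs from the sum of the Dmrt3 KO and Dmrt5 KO effects, each taken against WT. It gave 0 calls with edgeR against 0.142% of all genes, 12 members at an unadjusted p under 0.05 against 9.22% of all genes, and 1 call (Dcc) with DESeq2 against 0.705% of all genes.

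Signed changes of the members centred near 0. The median log2 fold change of the 38 members was 0.1 in the double KO against WT (0.01 over all genes), -0.08 in Dmrt5 KO (-0.02 over all genes) and -0.09 in Dmrt3 KO (0 over all genes). Its median size without sign in the double KO was 0.34, against 0.19 over all genes. Libraries did not overlap for 3 members higher and 2 lower in the double KO than in WT, where 2.57% and 3.4% of all genes were so separated.

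**Figure D2:**
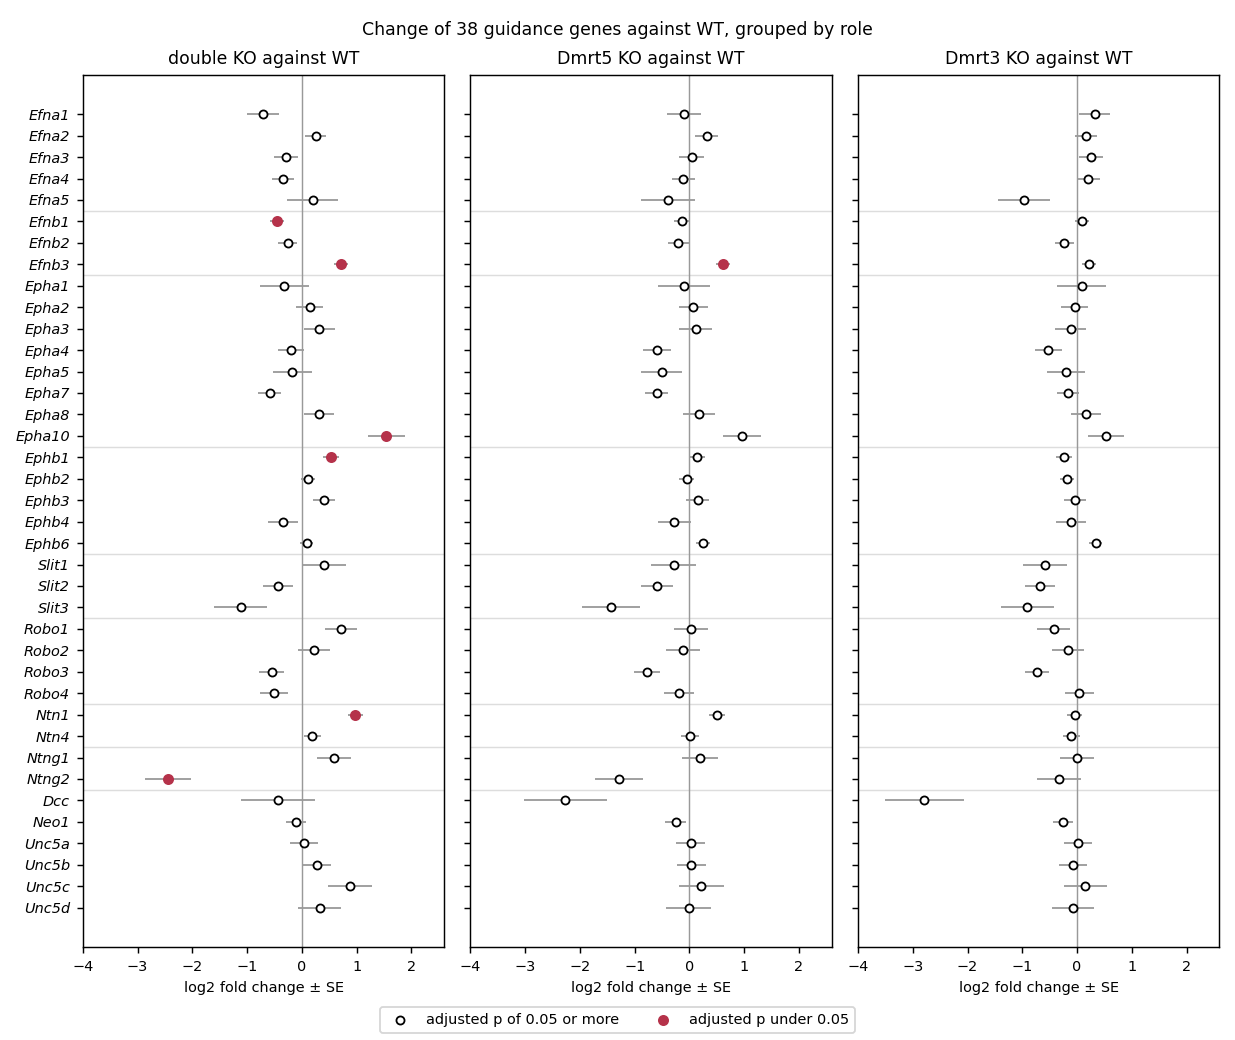
Log2 fold change ± SE of the 38 tested members in the double KO, Dmrt5 KO and Dmrt3 KO, each against WT, grouped by role from ephrins at the top to netrin receptors at the bottom (filled points: adjusted p under 0.05). The double KO holds 6 filled points, Dmrt5 KO 1 and Dmrt3 KO none, and Ntng2 reaches -2.44 in the double KO.

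The promoter windows of 3 called members with a RefSeq entry are shown, chosen after their values were seen. Epha10, which rose, and Ntng2, which fell, had the largest folds of the called members in the double KO against WT, and Ephb1 rose against both WT and Dmrt3 KO. Each window runs from 250 bases before to 50 bases after a RefSeq start site (GRCm38.p6), 5′ to 3′ on the gene's strand. Capitals mark GGGCGG or its complement CCGCCC, the GC box.
Epha10, chr4:124881535-124881834, plus strand: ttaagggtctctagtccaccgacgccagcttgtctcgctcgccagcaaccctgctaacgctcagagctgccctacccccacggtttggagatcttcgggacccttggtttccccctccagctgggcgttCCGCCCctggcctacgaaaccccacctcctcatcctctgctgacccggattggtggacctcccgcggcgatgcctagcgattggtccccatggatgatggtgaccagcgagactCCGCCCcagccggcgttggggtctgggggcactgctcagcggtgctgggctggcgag
Ephb1, chr9:102354644-102354943, minus strand: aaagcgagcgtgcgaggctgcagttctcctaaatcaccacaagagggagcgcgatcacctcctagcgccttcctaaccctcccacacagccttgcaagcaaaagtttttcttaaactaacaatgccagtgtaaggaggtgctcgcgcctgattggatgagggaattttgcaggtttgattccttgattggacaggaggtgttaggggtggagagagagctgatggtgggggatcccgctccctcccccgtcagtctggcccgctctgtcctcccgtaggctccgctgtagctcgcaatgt
Ntng2, chr2:29248050-29248349, minus strand: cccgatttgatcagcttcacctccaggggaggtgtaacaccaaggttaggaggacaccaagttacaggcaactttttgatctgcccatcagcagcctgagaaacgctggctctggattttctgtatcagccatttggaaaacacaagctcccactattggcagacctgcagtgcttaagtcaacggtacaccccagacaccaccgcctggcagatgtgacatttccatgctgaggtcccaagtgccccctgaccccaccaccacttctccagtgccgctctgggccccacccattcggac
The Epha10 window held 2 GC boxes and 21 CpG dinucleotides, the Ephb1 window 0 and 14, and the Ntng2 window 0 and 6. A RefSeq start site need not be the outermost annotated start of a gene. In GENCODE M21 Ntng2 begins at 29253005 on the minus strand and Epha10 at 124880899 on the plus strand. Both windows therefore lie inside the gene, and the sequence at the outermost starts of Ntng2 and Epha10 is not shown. RefSeq windows were matched for 34 of the 39 members, with 39 windows in all, and not for Dcc, Efnb3, Ntn1, Slit1 and Unc5d. A GC box on either strand was in 27 of the 39 windows (69.2%), against 35.7% of 32851 windows of all genes. The median window of the members held 22 CpG dinucleotides, against 7 over all windows. The letters ACANTGT, the core of the motif bound by DMRT factors and its own reverse complement, were in 0 of the 39 windows and in 7.54% of all windows. This describes these windows only, and no binding was measured.

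Among the ephrin-Bs, 2 of 3 were called in the double KO, and in opposite directions. Efnb3 (mm10 chromosome 11, 69554092 to 69560205), the ephrin-B3 gene known in mouse as a midline barrier to corticospinal axons, had 284, 290, 229, 217 and 283 CPM in the double KO, 237, 218, 235 and 280 in Dmrt5 KO, 194, 196, 192, 186 and 155 in Dmrt3 KO and 189, 131, 154 and 162 in WT. Every library without Dmrt5 stood above every library with it. Efnb3 was 1.64-fold higher in the double KO than in WT (log2 0.71 ± 0.13 SE, adjusted p = 0.00199), 1.41-fold higher than in Dmrt3 KO (0.5 ± 0.12, adjusted p = 0.0233) and 1.53-fold higher in Dmrt5 KO than in WT (0.61 ± 0.13, adjusted p = 0.0329). The Dmrt5 KO call was lost without any 1 of 7 libraries, WT replicates 2, 3 and 4 or Dmrt5 KO replicates 1, 2, 4 and 5, at adjusted p between 0.0613 and 0.144 and a log2 fold change of at least 0.53. The call against Dmrt3 KO was lost without Dmrt3 KO replicates 4 or 5 or double KO replicates 1, 2 or 5 (adjusted p = 0.0522, 0.0712, 0.0559, 0.0639 and 0.056), with only the genotypes compared (0.49, adjusted p = 0.0557) and with the mesenchyme level as a covariate (0.36, adjusted p = 0.348). The difference between the double KO and Dmrt5 KO was 0.1 ± 0.13, with adjusted p = 0.997. Subpallial markers moved with the same genotypes: 10 of 10 were called higher in the double KO and 6 of 10 in Dmrt5 KO, each against WT. Their summed level was 1683 to 3084 CPM in the double KO, 1537 to 1922 in Dmrt5 KO, 821 to 1331 in Dmrt3 KO and 787 to 1100 in WT, and their part in the differences of Efnb3 and Ntn1 was not tested.

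Efnb1 (X chromosome, 99136130 to 99148991), which encodes the ephrin-B1 of cortical progenitors, had 249, 392, 308, 332 and 303 CPM in the double KO, 375, 354, 406 and 433 in Dmrt5 KO, 498, 344, 470, 514 and 474 in Dmrt3 KO and 447, 432, 454 and 399 in WT. All double KO libraries lay below all WT libraries, but Dmrt3 KO replicate 2 lay within the double KO range. Efnb1 fell 1.37-fold against WT (log2 -0.45 ± 0.13, adjusted p = 0.0498) and 1.45-fold against Dmrt3 KO (-0.54 ± 0.12, adjusted p = 0.0191). The WT call stood at the threshold: it held only without Dmrt3 KO replicate 2 or double KO replicates 2 or 4 among the 18 fits that each left out 1 library, and adjusted p was 0.0579 to 0.128 in the other 15. Against Dmrt3 KO the call was lost without Dmrt3 KO replicates 1, 3 or 4 (adjusted p = 0.0569, 0.059 and 0.056). Both Efnb1 calls were lost with the mesenchyme level as a covariate and with only the genotypes compared. Both were also lost without double KO replicate 5 and WT replicate 4 together. The WT call was lost too with RLE size factors, without the count filter and with a replicate block. Efnb2, the partner of Ephb4 in vessels and of several EphBs in neurons, averaged 227 ± 57.2 CPM in the double KO, 236 ± 20.7 in Dmrt5 KO, 231 ± 37.1 in Dmrt3 KO and 272 ± 61.9 in WT, and was called in no comparison.

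Of the 5 ephrin-As, only Efna1 was called, and only between the double KO and Dmrt3 KO. Efna1 (chromosome 3, 89271733 to 89281142), an ephrin-A known from vessels and early neurons, had 9.05, 7.17, 6.01, 12.7 and 4.02 CPM in the double KO, 11.8, 10.8, 15.3 and 9.57 in Dmrt5 KO, 18.3, 12.6, 14.4, 13.9 and 20.4 in Dmrt3 KO and 9, 18.1, 15.2 and 8.77 in WT. The double KO and Dmrt3 KO touched at 1 library each, since double KO replicate 4 was level with the lowest Dmrt3 KO library. It was 2.04-fold lower in the double KO than in Dmrt3 KO (log2 -1.03 ± 0.28, adjusted p = 0.0449), a call that was lost in 13 of the 18 fits without 1 library and kept without WT replicates 1, 2 or 4, Dmrt3 KO replicate 2 or double KO replicate 4. Over all 27 other settings the Efna1 call was kept in 7 and lost in 20. Efna3 and Efna4 lie beside Efna1 in 66.3 kb of chromosome 3. In the same comparison they gave -0.54 ± 0.2 and -0.55 ± 0.2, with adjusted p = 0.187 and 0.152, and the Efna4 libraries did not overlap. Efna2 averaged 89 ± 20.9 CPM in the double KO and 74.9 ± 24 in WT, and its log2 fold changes in the 5 pairwise comparisons lay between -0.06 and 0.31. Efna5, a graded cue in cortex and thalamus, ranged from 3.7 to 17 CPM in the double KO and from 3.04 to 13.3 in WT, where the highest value of each group was double KO replicate 5 and WT replicate 4.

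Among the 8 EphA receptors tested, Epha10 rose in the double KO. Epha10 (chromosome 4, 124880899 to 124917800), an Eph receptor without kinase activity, had 4.01, 3.15, 3.78, 3.41 and 6.86 CPM in the double KO, 2.82, 2.86, 2.15 and 3.45 in Dmrt5 KO, 1.67, 3.89, 2.55, 1.41 and 1.03 in Dmrt3 KO and 1.38, 1.6, 1.31 and 1.53 in WT. All double KO and all Dmrt5 KO libraries lay above all WT libraries, and Dmrt3 KO spanned both. It was 2.91-fold higher in the double KO than in WT (log2 1.54 ± 0.33, adjusted p = 0.0079). The values rest on 69 to 176 counts per double KO library and 30 to 53 per WT library. The call held in all 18 fits without 1 library and was lost with the mesenchyme level as a covariate (log2 1.03, adjusted p = 0.118), a level that was lower in 4 of the 5 double KO libraries than in any WT library. In Dmrt5 KO against WT it was 0.95 ± 0.34 (adjusted p = 0.264). Against Dmrt3 KO the double KO gave 1.01 ± 0.3 (adjusted p = 0.0807), called without Dmrt3 KO replicate 2 (1.35, adjusted p = 0.00906) or double KO replicate 4 (1.08, adjusted p = 0.0437).

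The other EphAs were not called. Epha7, which marks parts of the cortical plate and binds ephrin-A5, averaged 30.7 ± 8.55 CPM in the double KO, 30.4 ± 4.77 in Dmrt5 KO, 41.1 ± 5.05 in Dmrt3 KO and 46.1 ± 14.1 in WT. Its log2 fold change was -0.59 ± 0.2 in the double KO (adjusted p = 0.108) and -0.6 ± 0.22 in Dmrt5 KO (adjusted p = 0.265), each against WT. With the length-related slope of each library (described below) as a covariate, chosen after the data were seen, it was called in the double KO against WT (-0.54, adjusted p = 0.00989), where 14.1% of all genes were, and against Dmrt3 KO (-0.63, adjusted p = 0.00614), where 5.68% were. Epha4, which binds both ephrin classes, averaged 146 ± 55.6 CPM in the double KO, 111 ± 8.94 in Dmrt5 KO, 116 ± 21.8 in Dmrt3 KO and 167 ± 59.2 in WT, and its lowest unadjusted p was in the interaction (0.92 ± 0.35, adjusted p = 0.529). Epha3 averaged 124 ± 61.5 CPM in the double KO and 99.2 ± 33 in WT, with 233 CPM in double KO replicate 5 and at most 106 in the other 4. Epha1, Epha2, Epha5 and Epha8 averaged 1.01, 7.84, 40 and 3.81 CPM in the double KO and 1.26, 7.09, 45.1 and 3.05 CPM in WT. Epha1 shares 236 exon bases with Zyx on the opposite strand, whose reads an unstranded library cannot separate.

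Of the 5 EphB receptors, Ephb1 was the only one called. Ephb1 (chromosome 9, 101922128 to 102354693), the receptor that in mouse turns retinal axons to the same side at the chiasm, had 103, 120, 98, 91.6 and 130 CPM in the double KO, 86.9, 80.2, 76.2 and 87.5 in Dmrt5 KO, 63.9, 71.9, 62.2, 65.2 and 55.4 in Dmrt3 KO and 95.4, 54.7, 70.9 and 79.8 in WT. The double KO lay above all libraries of Dmrt3 KO and Dmrt5 KO, and overlapped WT through WT replicate 1. Ephb1 was 1.7-fold higher in the double KO than in Dmrt3 KO (log2 0.77 ± 0.13, adjusted p = 0.00214) and 1.44-fold higher than in WT (0.53 ± 0.14, adjusted p = 0.0333). The call against Dmrt3 KO was kept under all 27 other settings tried. The call against WT was lost without WT replicates 2, 3 or 4 or double KO replicates 2 or 5 (adjusted p = 0.0938, 0.107, 0.0511, 0.0814 and 0.0697). It was also lost with a replicate block (0.51, adjusted p = 0.0571), with the mesenchyme level as a covariate (0.32, adjusted p = 0.457), with only the genotypes compared (0.53, adjusted p = 0.228) and without both double KO replicate 5 and WT replicate 4 (0.51, adjusted p = 0.0777).

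Ephb2, Ephb3, Ephb4 and Ephb6 averaged 279 ± 53, 47.7 ± 11.7, 68.4 ± 37.4 and 33.5 ± 4.01 CPM in the double KO and 259 ± 36.9, 36.2 ± 3.05, 86.8 ± 10.5 and 31.4 ± 3.93 CPM in WT. None of these 4 was called. Ephb4, a receptor of venous endothelium, reached 134 CPM in double KO replicate 4, while the remaining double KO libraries held 44.9 to 62.6 CPM and WT 76.9 to 102. Without double KO replicate 4 it was called lower in the double KO than in WT (log2 -0.74, adjusted p = 0.0228), in a fit that called 12.3% of all genes in this comparison, against 6.23% with all libraries. That library had the highest endothelial and mesenchymal levels of its genotype, and their part in the difference was not tested.

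No Slit was called in any comparison. Slit1, Slit2 and Slit3 are the secreted ligands of Robo receptors, and Slit1 and Slit2 keep cortical axons from the ventral midline of the mouse forebrain. Slit1 had 55.1, 56.8, 35, 20 and 100 CPM in the double KO and in WT 53.2, 13.5, 36.6 and 57.2 CPM, and the groups overlapped, with WT replicate 2 lowest and double KO replicate 5 highest. Slit2 averaged 29.5 ± 11.4 CPM in the double KO, 26.5 ± 4.97 in Dmrt5 KO, 24.9 ± 2.99 in Dmrt3 KO and 39.8 ± 18.4 in WT, with log2 fold changes against WT of -0.43 ± 0.27, -0.59 ± 0.28 and -0.68 ± 0.27. Slit3 averaged 2.73 ± 1.79 CPM in the double KO, 2.2 ± 1.35 in Dmrt5 KO, 3.17 ± 1.57 in Dmrt3 KO and 5.91 ± 3.83 in WT, with log2 fold changes against WT of -1.12 ± 0.48, -1.43 ± 0.52 and -0.91 ± 0.48. In each KO genotype the mean of Slit2 and of Slit3 was under that of WT, where replicate 4 held the highest value of both.

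Among the Robos, Robo1 rose against Dmrt3 KO. Robo1 (chromosome 16, 72308306 to 73046095), the receptor through which Slits act on thalamocortical axons and cortical interneurons, had 131, 107, 108, 116 and 277 CPM in the double KO, 79.8, 96.2, 95.7 and 95 in Dmrt5 KO, 44.4, 83.7, 70.6, 64 and 71.6 in Dmrt3 KO and 84.1, 53.3, 73.7 and 149 in WT. Every double KO library lay above every library of both single KOs, and only WT replicate 4 reached into the double KO range. It was 2.21-fold higher in the double KO than in Dmrt3 KO (log2 1.14 ± 0.28, adjusted p = 0.0289), and against WT it was 0.71 ± 0.3 (adjusted p = 0.21), called only without WT replicate 4 (1.07, adjusted p = 0.0392) among the fits that left out 1 library. Without double KO replicate 5 the fold against Dmrt3 KO fell to log2 0.79 and the call was lost (adjusted p = 0.0787), as it was without Dmrt3 KO replicates 1, 3, 4 or 5 (adjusted p = 0.0947, 0.0528, 0.0674 and 0.0567). This call was also lost with the mesenchyme level as a covariate and with only the genotypes compared. Without both double KO replicate 5 and WT replicate 4, a setting added after the data were seen, Robo1 was called in the double KO against Dmrt3 KO (0.8, adjusted p = 0.00893) and against WT (0.74, adjusted p = 0.0294).

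Robo3, which silences Slit repulsion in mouse commissural neurons, had 36.2, 50.3, 53.4, 70.6 and 85.1 CPM in the double KO, 41.4, 54.6, 53.4 and 54 in Dmrt5 KO, 54.1, 42.1, 59.3, 55.3 and 50 in Dmrt3 KO and 93.2, 56.1, 76 and 121 in WT. All Dmrt5 KO libraries lay below all WT libraries, where 4.34% of all genes were so separated, while the other KOs overlapped WT. Its log2 fold change was -0.55 ± 0.22 in the double KO, -0.77 ± 0.24 in Dmrt5 KO and -0.73 ± 0.22 in Dmrt3 KO, with adjusted p = 0.19, 0.173 and 0.379. Robo2 averaged 72.5 ± 36.2 CPM in the double KO and 61.9 ± 25.1 in WT. Robo4, a Robo of endothelium, reached 23.8 CPM in double KO replicate 4, while the remaining double KO libraries held 7.92 to 11.8 CPM and WT 17.3 to 20.5, and without double KO replicate 4 it was called lower against WT (log2 -0.82, adjusted p = 0.0154). Efna1, Epha7 and Slit3 were called lower against WT in that fit too (-0.96, -0.72 and -1.57, with adjusted p = 0.0298, 0.0266 and 0.0393), and Slit1 higher against Dmrt3 KO (1.21, adjusted p = 0.0377). That fit gave 11 members in each of these comparisons, where 12.3% of all genes were called against WT and 8.85% against Dmrt3 KO.

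Ntn1 gave the smallest adjusted p of the list. Ntn1 (chromosome 11, 68209364 to 68400823), the secreted netrin-1 that guides corticofugal and thalamocortical axons, had 111, 165, 130, 124 and 173 CPM in the double KO, 94, 93.5, 93.3 and 123 in Dmrt5 KO, 64.6, 67, 72.6, 76.2 and 66.3 in Dmrt3 KO and 78.8, 57.7, 79.2 and 69.9 in WT. Every double KO library and every Dmrt5 KO library lay above every library of Dmrt3 KO and WT. Ntn1 was 1.97-fold higher in the double KO than in WT (log2 0.98 ± 0.14, adjusted p = 0.000369) and 2.03-fold higher than in Dmrt3 KO (1.02 ± 0.13, adjusted p = 0.000132), and both calls were kept under all 27 other settings tried. In Dmrt5 KO against WT it gave 0.5 ± 0.15 (adjusted p = 0.143), and DESeq2 called it there (0.51, adjusted p = 0.0484) among 2.29% of all genes. The double KO against Dmrt5 KO gave 0.48 ± 0.14 (adjusted p = 0.312) and the interaction 0.52 ± 0.2 (adjusted p = 0.529). Ntn4, a netrin of basement membranes, averaged 37.5 ± 8.6 CPM in the double KO and 32.8 ± 5.36 in WT and was not called.

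Ntng2 had the largest fold among the called members. Ntng2 (chromosome 2, 29194541 to 29253005), whose netrin-G2 protein binds Lrrc4, had 1.42, 3.84, 2.31, 3.88 and 3.98 CPM in the double KO, 7.07, 4.85, 6.82 and 8.73 in Dmrt5 KO, 20, 10.4, 14.7, 15.1 and 6.42 in Dmrt3 KO and 27.3, 4.91, 13.5 and 21.2 in WT. All double KO libraries lay below all others. Counts of Ntng2 per library ran from 29 to 813. WT was wide, since WT replicate 2 at 4.91 CPM stood among the Dmrt5 KO values. Ntng2 was 5.42-fold lower in the double KO than in WT (log2 -2.44 ± 0.42, adjusted p = 0.00161) and 4.3-fold lower than in Dmrt3 KO (-2.11 ± 0.4, adjusted p = 0.00475), and both calls were kept under all 27 other settings tried. Dmrt5 KO against WT gave -1.29 ± 0.44 (adjusted p = 0.228) and was called without WT replicate 2 (-1.59, adjusted p = 0.0427), and the double KO against Dmrt5 KO -1.15 ± 0.42 (adjusted p = 0.678). Ntng2 shares 558 exon bases with 6530402F18Rik on the same strand. Glutamatergic markers fell in the double KO too, where 9 of 10 were called lower than in WT. In Dmrt5 KO and in Dmrt3 KO, 0 of 10 were called against WT. Their summed level was 254 to 435 CPM in the double KO and 771 to 1019 in Dmrt5 KO. It was 974 to 1388 CPM in Dmrt3 KO and 721 to 1422 in WT. The part of these markers in the Ntng2 differences was not tested. Ntng1, the netrin-G of thalamic axons, averaged 3.86 ± 1.48 CPM in the double KO and 2.55 ± 1.03 in WT and was not called.

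**Figure D3:**
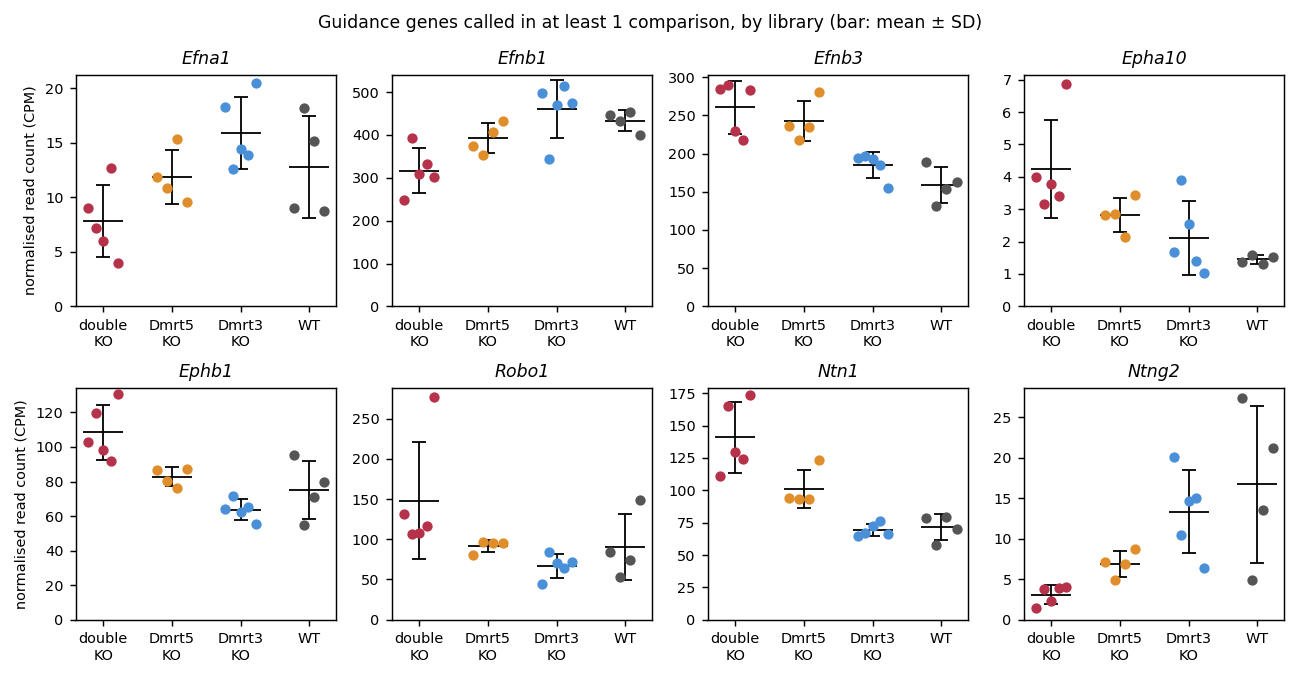
Normalised read count (CPM) of the 8 members called in at least 1 comparison, by library, with the double KO at the left and WT at the right of each panel (points are libraries, bars mean ± SD). Ntn1 and Efnb3 stand higher in both genotypes without Dmrt5, Ntng2 is lowest in the double KO at 1.42 to 3.98 CPM, and double KO replicate 5 stands above its group for Robo1 and Epha10.

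The netrin receptors were not called by edgeR. Dcc, the receptor for netrin attraction, varied most among them: it had 14.5, 9.95, 5.87, 4.64 and 41.7 CPM in the double KO, 5.09, 8, 1.83 and 2.34 in Dmrt5 KO, 3.46, 5.04, 2.13, 2.95 and 1.42 in Dmrt3 KO and 8.4, 3.68, 26.4 and 44.3 in WT. Double KO replicate 5 and WT replicates 3 and 4 held the 3 highest values, and WT replicate 2 lay within the range of both single KOs. Its log2 fold change against WT was -0.43 ± 0.68 in the double KO, -2.27 ± 0.76 in Dmrt5 KO and -2.79 ± 0.72 in Dmrt3 KO, with adjusted p = 0.864, 0.224 and 0.292. The double KO value moved with 1 library left out: it changed sign to 0.26 without WT replicate 4, and was -1.25 without double KO replicate 5. The double KO against Dmrt3 KO gave 2.35 ± 0.69 (adjusted p = 0.0719) and the interaction 4.62 ± 1.03 (adjusted p = 0.116). DESeq2 called both (2.36 and 4.6, with adjusted p = 0.0168 and 0.00336), where it called 5.02% and 0.705% of all genes. In edgeR both were called without WT replicate 2 (2.35 and 4.97, with adjusted p = 0.0394 and 0.0443), and the comparison with Dmrt3 KO also without double KO replicate 4 (2.59, adjusted p = 0.0256). Without double KO replicate 5 that comparison gave 1.54 (adjusted p = 0.304). Without double KO replicate 5 and WT replicate 4 together the interaction was 3.13 (adjusted p = 0.426).

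The other netrin receptors gave smaller differences. Neo1 averaged 148 ± 39.3 CPM in the double KO, 135 ± 14.3 in Dmrt5 KO, 134 ± 4.32 in Dmrt3 KO and 160 ± 46.9 in WT. Unc5a, Unc5b, Unc5c and Unc5d, the receptors of netrin repulsion, averaged 17.9, 50.7, 16 and 8.5 CPM in the double KO and 17.3, 41.9, 8.73 and 6.74 CPM in WT. Unc5c reached 36.3 CPM in double KO replicate 5, while the remaining 4 held 9.56 to 12.3 CPM, so its group mean rests on that library.

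**Figure D4:**
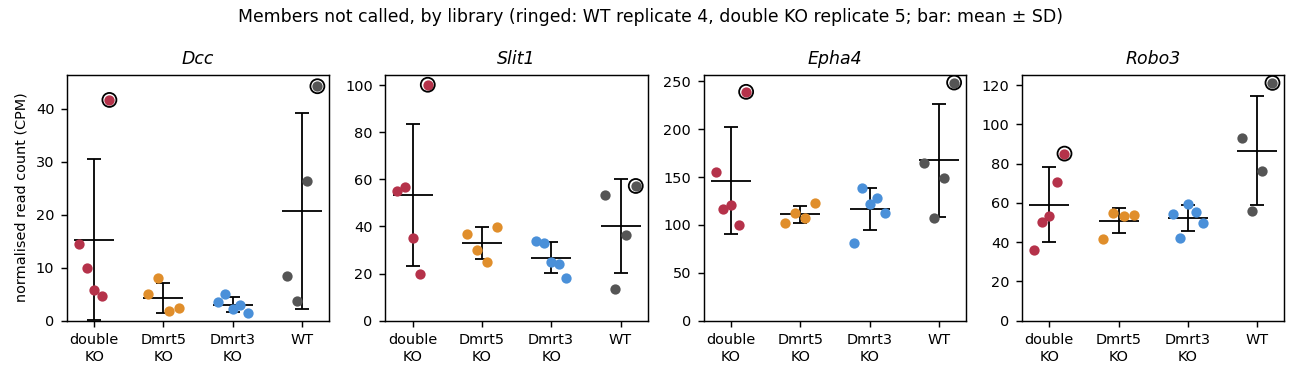
Normalised read count (CPM) of Dcc, Slit1, Epha4 and Robo3, members not called by edgeR, by library (points are libraries, bars mean ± SD; rings mark double KO replicate 5 and WT replicate 4). The ringed libraries hold the highest value of their group for all 4 genes, for Dcc 41.7 and 44.3 CPM.

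Many guidance genes are long, and 2 libraries stood apart by gene length. The slope of a library's log2 CPM deviation on log10 genomic length, over all well expressed genes, was 0.59 in double KO replicate 5 and 0.51 in WT replicate 4, and lay between -0.3 and 0.24 in the other libraries. Of the 19 tested members longer than 100 kb, 17 had their highest double KO value in replicate 5 and 17 their highest WT value in replicate 4, and 15 had both. Of all tested genes that long, 62.1% and 64.5% did. Of the 19 shorter members, 6 and 7 did, and of all tested genes up to 100 kb, 31.7% and 29.7% did. WT replicate 2 had the lowest slope of all libraries (-0.3). It held the lowest WT value of 17 of the 19 long members and of 9 of the 19 shorter ones. The share over all genes was not taken for this count. The median long member was 1.01 higher in double KO replicate 5 than in the other double KO libraries and 0.85 higher in WT replicate 4 than in the other WT libraries, on the log2 scale, where all long genes gave 0.58 and 0.51.

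Directions of the long members moved with these libraries. The log2 fold change lay above 0 for 19 of the 19 long members in the double KO against Dmrt5 KO and for 15 without double KO replicate 5. In Dmrt3 KO against WT it lay above 0 for 2 of 19, and for 6 without WT replicate 4. In the double KO against WT it lay above 0 for 12 of 19, for 8 without double KO replicate 5 and for 16 without WT replicate 4, and the median was 0.19, -0.04 and 0.49. The interaction was above 0 for 19 of 19 (median 0.52), and for 14 (median 0.17) without both libraries. For these directions the share over all long genes was not taken. Of the called members, Ntn1, Ephb1 and Robo1 are longer than 100 kb, at 191, 433 and 738 kb. Ntn1 differed by 0.4 and Ephb1 by 0.35 between double KO replicate 5 and the rest of its group, and Robo1 by 1.26. What sets these 2 libraries apart was not tested.

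**Figure D5:**
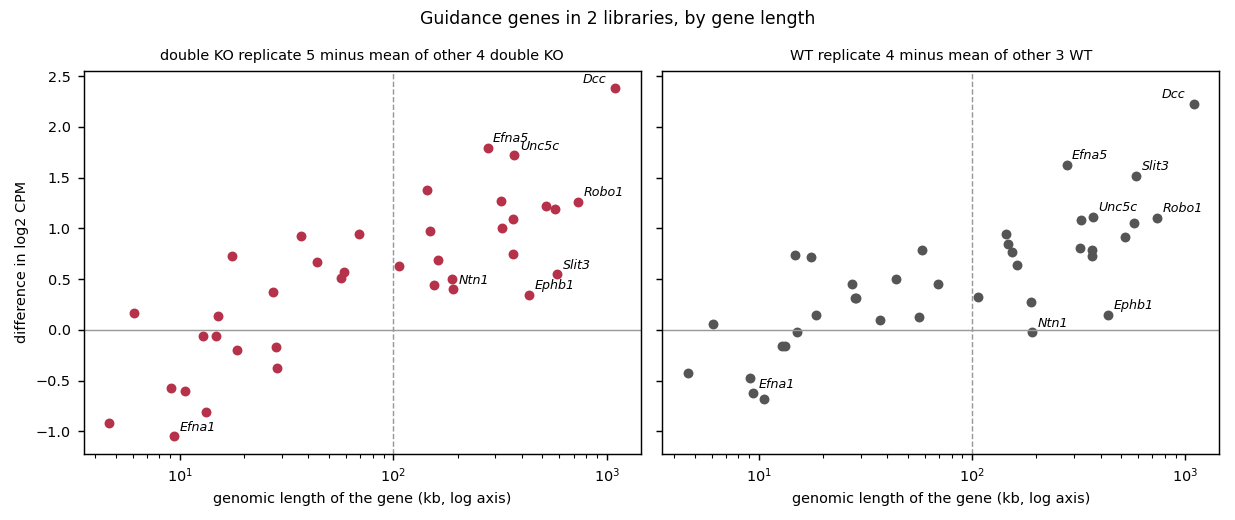
Difference in log2 CPM between double KO replicate 5 and the mean of the other 4 double KO libraries (left) and between WT replicate 4 and the mean of the other 3 WT libraries (right), for each tested member against the genomic length of its gene in kilobases on a log axis (dashed line: 100 kb). Most members to the right of the line lie above 0 in both panels, with Dcc highest.

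Partners and effectors of these receptors were taken as a list of 46 genes, of which 45 were tested. In the double KO against WT, 1 was called higher and 3 lower, 8.89% against 6.23% of all genes. Lrrc4, the synaptic partner of netrin-G2, rose (log2 0.68 ± 0.15, adjusted p = 0.0093) and averaged 40.6 ± 8.16 CPM in the double KO and 25.3 ± 3.71 in WT. Cdon, a hedgehog co-receptor that also associates with neogenin, fell to 71.8 ± 19 CPM in the double KO, against 204 ± 83 in WT (-1.5 ± 0.23, adjusted p = 0.000554). Flrt3 and Flrt1, adhesion proteins that bind Unc5 receptors and Robo1, fell as well: Flrt3 averaged 39.5 ± 7.1 CPM in the double KO and 77.6 ± 15.8 in WT (-0.97 ± 0.16, adjusted p = 0.00119), and Flrt1 3.5 ± 1.52 and 8.88 ± 4.48 CPM (-1.34 ± 0.33, adjusted p = 0.0183). In Dmrt5 KO against WT only Flrt3 was called, at 37.1 ± 1.01 CPM against 77.6 ± 15.8 (-1.06 ± 0.17, adjusted p = 0.00566), which is 2.22% of the list against 1.03% of all genes. Against Dmrt3 KO, only Cdon was called in the double KO (-1.05 ± 0.22, adjusted p = 0.00882), which is 2.22% of the list against 3.7% of all genes.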

How the data were processed

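Libraries were prepared with a TruSeq RNA v2 kit, which does not mark strand, from RNeasy-purified RNA, per the labels' protocols. The deposited files hold raw read counts per Ensembl gene, without normalization. The submitters' processing notes name, in no stated role, STAR 2.3.0e and featureCounts 1.4.6-p1, besides CASAVA 1.8.2, bcl2fastq, FastQC 0.10.1 and DESeq2 1.8.2, and the build mm10. Depth was 19602718 to 33072896 counts per library. Symbols and coordinates came from GENCODE M21 (GRCm38, the same assembly) for 36602 of 38355 identifiers.

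All 18 libraries were fitted together with edgeR 4.0.16 in R 4.3.3: filterByExpr by genotype, TMM scaling, the quasi-likelihood test with 1 mean per genotype and 14 residual degrees of freedom, two-sided, with Benjamini-Hochberg adjustment over 16236 genes. Calls required an adjusted p below 0.05. The SE was taken from the fold change and F statistic. Values per library are CPM with TMM factors; scores and length slopes used log2 CPM with a prior count of 2, and slopes used genes with a mean log2 CPM over 1. Sex was inferred from Ddx3y alone, as male above 10 CPM, so Dmrt5 KO replicate 1 was taken as male. Each member that was called has its libraries' values given; the others are summarised. Members and lists were chosen with earlier results of these data known. Other settings were DESeq2 1.42.0, RLE size factors, no count filter, only the genotypes compared, a replicate block, sex or mesenchyme level as covariate, and each library left out. The length slope as a covariate and the fit without double KO replicate 5 and WT replicate 4 were added after the data were seen.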

Additional observations from a re-analysis of the deposited data

Results flagged for a closer look

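In 20 of 152 groups of libraries (38 members in 4 genotypes), the highest or lowest library was separated from the rest by a large share of the group's range (Dixon's criterion at 95%). Chance marks about 1 in 20 groups, and the members of 1 library share that library. Values are CPM, with the range of the other libraries of the same genotype. Double KO replicate 4 stood apart for Epha2 at 13.2 against 6.02 to 6.83, Ephb4 at 134 against 44.9 to 62.6 and Robo4 at 23.8 against 7.92 to 11.8. Double KO replicate 5 stood apart for Epha3 at 233 against 83.6 to 106, Epha10 at 6.86 against 3.15 to 4.01, Slit2 at 49.2 against 21.1 to 28.3, Robo1 at 277 against 107 to 131, Dcc at 41.7 against 4.64 to 14.5 and Unc5c at 36.3 against 9.56 to 12.3. Dmrt5 KO replicate 1 stood apart for Robo1 at 79.8 against 95 to 96.2 and Robo3 at 41.4 against 53.4 to 54.6. Dmrt5 KO replicate 4 stood apart for Epha1 at 2.11 against 0.742 to 0.954, Ephb3 at 49.4 against 36.6 to 37.7 and Slit3 at 4.22 against 1.43 to 1.58. Dmrt5 KO replicate 5 stood apart for Ntn1 at 123 against 93.3 to 94. Dmrt3 KO replicate 2 stood apart for Efnb1 at 344 against 470 to 514 and Robo4 at 11.4 against 20 to 22.8. Dmrt3 KO replicate 4 stood apart for Efna2 at 70.1 against 85.7 to 88.6. Dmrt3 KO replicate 5 stood apart for Efnb3 at 155 against 186 to 196 and Slit3 at 5.91 against 1.94 to 2.91. Double KO replicate 5 was the library with the steepest length slope, and its marked members are high. Double KO replicate 4, whose marked members Epha2, Ephb4 and Robo4 are high, had the highest mesenchymal and endothelial levels of its genotype. No library of WT was marked.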

How the results depend on the processing

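No called member reversed under any of 27 other settings. The calls of Efnb3, Ntn1 and Ntng2 in the double KO against WT and of Ephb1, Ntn1 and Ntng2 against Dmrt3 KO were kept under all of them. Among the 18 fits without 1 library, the number of members called ran from 0 to 0 in Dmrt3 KO against WT, 0 to 1 in Dmrt5 KO against WT, 4 to 11 in the double KO against WT, 3 to 11 against Dmrt3 KO, 0 to 0 against Dmrt5 KO and 0 to 1 in the interaction; both counts of 11 came without double KO replicate 4, where 12.3% of all genes were called against WT and 8.85% against Dmrt3 KO, and the 1 in the interaction (Dcc, 4.97, adjusted p = 0.0443) without WT replicate 2. In Dmrt5 KO against WT, 1 member was called, where 1.03% of all genes were. DESeq2 called 2 members and 2.29% of all genes. Without the count filter 0 members and 0.496% of all genes were called, and with only the genotypes compared 0 and 0.566%. The length slope as a covariate gave 3 members (Efnb3, Ntn1 and Robo3) and 2.94% of all genes. Without double KO replicate 5 and WT replicate 4, 0 members and 0.698% of all genes were called. In the double KO against WT, 6 were called, where 6.23% of all genes were. The mesenchyme level as a covariate gave 3, where 2.59% of all genes were called. The length slope gave 10, where 14.1% of all genes were called, and added Efna4, Epha7, Robo1 and Robo3. In the double KO against Dmrt3 KO, 7 were called, where 3.7% of all genes were. The mesenchyme level gave 3, where 1.76% of all genes were called. With only the genotypes compared 3 were called, where 2.34% of all genes were. The interaction had 0 calls, where 0.142% of all genes were called, against 1 with DESeq2, where 0.705% were. The cause of these shifts was not tested. Low counts limit Epha1, Epha6 and Epha10. Ntng1, Ntng2, Slit3, Dcc and Epha8 also had libraries with few counts, at lowest 21, 29, 29, 33 and 36.

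The labels do not say what the replicate numbers share. Over 24 pairs with the same number the correlation of deviations ran from -0.36 to 0.7 (median 0.24, against -0.14 for pairs with different numbers), and 4 of 18 libraries matched best with their own number, so the libraries were not treated as pairs. A replicate block gave 3 calls in Dmrt5 KO against WT (Efnb3, Epha7 and Slit3), 6 in the double KO against WT (Epha7 and Slit3 in place of Efnb1 and Ephb1) and 7 against Dmrt3 KO (Efna3 in place of Efna1), while over all genes it called 2.34%, 7.58% and 4.13%, against 1.03%, 6.23% and 3.7% without the block.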
